A study of Zea mays with 6 samples.

Results

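Dehydrins are proteins that plants make in drying tissue. This is an account of 4 maize dehydrin genes whose transcripts were measured above background in leaves of seedlings dehydrated once or 3 times. They are the genes whose deposited description contains the word dehydrin and that reached at least 1 FPKM (fragments scaled by transcript length and by the mapped fragments of the library) in at least 2 libraries. The word occurs in 5 of the 39634 gene descriptions listed, and 4 of these 5 genes are among the 20130 genes that reached this level. The members are GRMZM2G079440, described as DHN1 or RAB-17 (here RAB17), GRMZM2G373522, for which RefSeq gives the synonyms dhn2 and dehydrin3 (here DHN2), GRMZM2G147014, described as COR410, and GRMZM2G169372, described as dehydrin 13. All libraries come from leaves of 2-week-old seedlings of the inbred line B73, with roots out of soil and in water overnight before treatment. W seedlings were kept watered. A single air-drying of 2 h gave S1, and 3 such dryings with 22 h of rehydration between them gave S3. Each condition has 2 biological replicates, with several plants per treatment point. S3 leaves were taken after more days out of soil than S1 leaves, so the number of exposures and that time cannot be told apart.

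Dehydrins form group II of the late embryogenesis abundant (LEA) proteins. They are hydrophilic, largely unstructured proteins that accumulate in maturing seeds and, in leaves and roots, under drought, salt or cold, and each carries at least 1 lysine-rich K segment that can fold as a helix on membranes. Many dehydrin genes are induced by abscisic acid (ABA), the hormone that rises when leaves lose water. RAB17 takes its name from that response, and maize RAB17 is a phosphorylated protein of embryos and water-stressed leaves.

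The libraries had the leaf transcripts that their label implies. Of the 23 genes selected by the words for the Rubisco small subunit, chlorophyll a-b binding proteins, phosphoenolpyruvate carboxylase or pyruvate phosphate dikinase (which also select a few kinases and related enzymes), none was at 0 in every library. Their summed FPKM were 39200.5 and 23912.7 for the W libraries, 28392 and 28443 for S1, and 6526 and 10581 for S3. Of the 21 of them tested, 14 fell and 1 rose in S3 relative to S1, where 9.22% of all genes tested fell and 9.17% rose, and the part of this shift in the dehydrin values was not tested. Of 30 genes described as zein, oleosin or glutelin, seed products that leaves should lack, 22 were listed at 0 in every library and the sum over the 30 lay between 17.1 and 25.3 FPKM. A read was worth between 0.876 and 1.05 times as much in the other libraries as in the first W library, judged from genes with the lowest values, so the libraries were close in depth.

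RAB17 was the member that rose both in S1 relative to W and in S3 relative to S1. Its W libraries had 0.674 and 0.434 FPKM, its S1 libraries 19.7 and 8.61 FPKM, and its S3 libraries 122 and 188 FPKM. No library of one condition overlapped another condition. The means were 0.554 ± 0.169 FPKM in W, 14.2 ± 7.87 in S1 and 155 ± 46.1 in S3 (SD, n = 2 each). The S1 mean was 25.6 times the W mean, and the S3 mean, after the factor of 0.9934 that the tests also use for S3, was 10.9 times the S1 mean and 278 times the W mean. On the log2(FPKM + 1) scale used for the tests, which understates changes of genes near 1 FPKM, RAB17 rose by 3.19 in S1 relative to W (standard error 0.36, adjusted p = 0.00122, limma) and by 3.42 in S3 relative to S1 (standard error 0.36, adjusted p = 0.000533). Since W lay under 1 FPKM, the first of these sizes depended on the value added before the logarithm: it was 4.35 with 0.1 and 2.57 with 2 added. In watered leaves RAB17 was thus among the least abundant of the genes tested, at ranks 19058 and 19455 of 20130, and in S3 it stood at ranks 676 and 432. It reached the 1 FPKM asked of members only in S1 and S3, so part of this contrast was set by that filter. In bulk leaves, fewer cells carrying a transcript and less transcript per cell cannot be told apart.

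DHN2 rose at the first exposure and was not called different between the third and the first. The W libraries had 11.7 and 22.8 FPKM, the S1 libraries 1473 and 756 FPKM, and the S3 libraries 798 and 924 FPKM. Both dehydrated conditions lay far above W, and both S3 values fell between the S1 values. The means were 17.2 ± 7.82 FPKM in W, 1115 ± 507 in S1 and 861 ± 88.8 in S3. DHN2 rose by 5.93 log2 units in S1 relative to W (standard error 0.39, adjusted p = 0.000122, limma), a 64.7-fold ratio of means. The difference of S3 from S1 was -0.31 log2 units (95% interval -1.21 to 0.60, adjusted p = 0.565), which includes a 2-fold lower level in S3 but not a 2-fold higher one. Without replicate 1 of S1, the higher of the pair, this difference was 0.17. In S1 DHN2 was among the most abundant transcripts of the leaf, at ranks 42 and 91 of 20130 genes by FPKM.

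COR410 showed a larger first rise and then a partial fall. The name is that of a wheat dehydrin, an acidic protein found close to the plasma membrane of cold-acclimated wheat. Watered leaves had 3.56 and 4.84 FPKM, S1 leaves 611 and 321 FPKM, and S3 leaves 117 and 223 FPKM. The conditions did not overlap, and S3 stood between W and S1. The means were 4.20 ± 0.908 FPKM in W, 466 ± 205 in S1 and 169.85 ± 74.5 in S3. COR410 rose by 6.43 log2 units in S1 relative to W (standard error 0.38, adjusted p = 7.2e-05, limma), and only 5 of the 20130 genes tested had a higher estimate. It fell by 1.46 in S3 relative to S1 (standard error 0.38, 95% interval -2.34 to -0.58, adjusted p = 0.020) and remained 4.97 log2 units above W (adjusted p = 9.19e-05). The fall rested on the replicates that lay farthest apart: it was -0.997 and no longer called without replicate 1 of S1 (adjusted p = 0.116), nor was it called without replicate 1 of S3 (adjusted p = 0.0834).

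Dehydrin 13 was the only member abundant in watered leaves, and relative to W it changed least of the 4 in both S1 and S3. The W libraries held 713 and 482 FPKM of it, the S1 libraries 1486 and 1159 FPKM, and the S3 libraries 519.9 and 794 FPKM. Both S1 values exceeded every other value, and the S3 libraries enclosed one of the W libraries. The means were 597 ± 163 FPKM in W, 1323 ± 232 in S1 and 657 ± 194 in S3. In S1 the mean was 2.21 times that of W, a difference of 1.16 log2 units (standard error 0.34) that missed the threshold over all genes (adjusted p = 0.0565, limma). It passed when replicate 1 or replicate 2 of S3, which takes no part in the comparison except through the shared spread, was left out (adjusted p = 0.048 and 0.0452). In S3 the level fell by 1.04 log2 units relative to S1 (standard error 0.34, adjusted p = 0.0458). This call was lost without either W replicate (adjusted p = 0.0516 without replicate 1 and 0.0525 without replicate 2), without either S1 replicate (0.211 and 0.101) and without replicate 1 of S3 (0.204). A fit with the replicate block gave 0.0944 and did not keep the call either; replicate 1 and replicate 2 of every condition differ in read length. S3 and W differed by 0.12 log2 units (95% interval -0.67 to 0.91, adjusted p = 0.798), an interval that excludes a 2-fold difference in either direction, although it covers only the spread between these libraries.

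**Figure D1:**
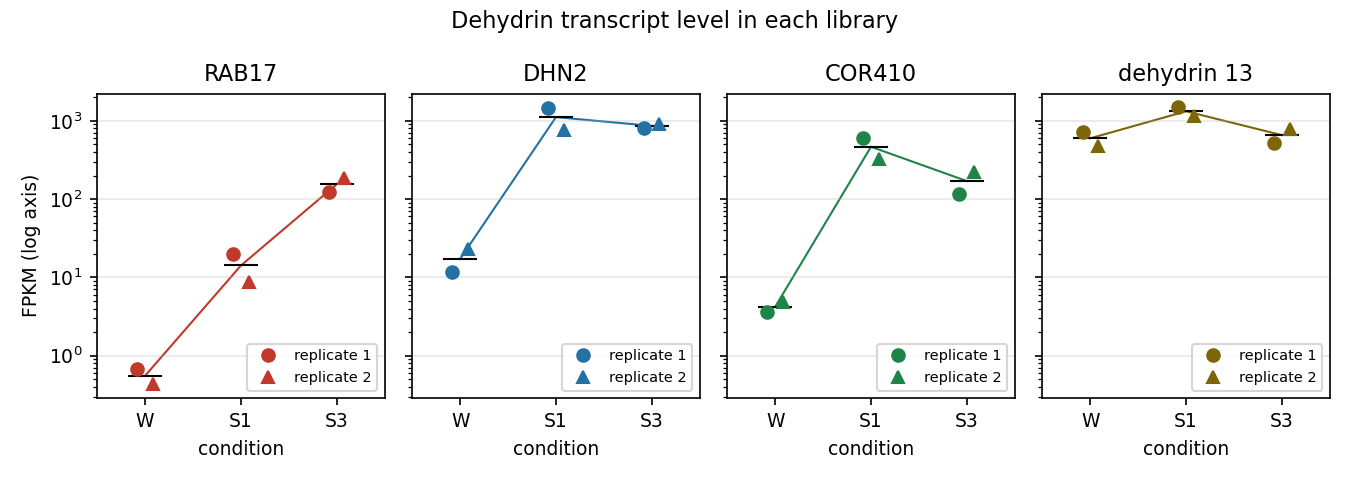
Deposited FPKM (log axis) of RAB17, DHN2, COR410 and dehydrin 13 in W, S1 and S3; circles are replicate 1, triangles replicate 2, black bars and the line the mean of both. RAB17 lies at 0.674 and 0.434 FPKM in the W libraries and at 122 and 188 FPKM in the S3 libraries, whereas dehydrin 13 stays between 482 and 1486 FPKM throughout.

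The first question of the design is which genes respond to a first dehydration. Of the 4 dehydrin genes, 3 rose in S1 relative to W by the criteria used here (adjusted p of at most 0.05 and a log2 change of at least 1 in size), against 7.51% of all genes tested that rose and 9.04% called in either direction. None of the 4 was lower. RAB17, under 1 FPKM in both W libraries, passed the level set for members only through its dehydrated libraries. That choice favoured a rise of RAB17 over W, which enters this count and the median given next. The median log2 change of the 4 members was 4.56, beside -0.01 over all genes tested. COR410, DHN2, RAB17 and dehydrin 13 ranked 6, 10, 148 and 1332 of 20130 by the size of their increase. In each member both S1 libraries lay above both W libraries, an arrangement that 31.6% of all genes tested also had, while 31.7% had both S1 libraries below both W libraries.

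The second question is whether the third dehydration gives another transcript level than the first. The study counts a gene with such a difference as a memory gene only if it also responded to the first. Here the members parted. RAB17 rose further, COR410 and dehydrin 13 fell, and DHN2 was not called, so that 3 of the 4 were called, against 18.4% of all genes tested. Higher calls made up 9.17% and lower calls 9.22% of all genes. The S3 and S1 libraries did not overlap for these 3 members, as for 42.1% of all genes with S3 higher and 28.3% with S3 lower. With signs for the first and the second step, as the study writes them, the calls place RAB17 in [+/+] and COR410 in [+/-]. They place DHN2 in [+/=] and dehydrin 13 in [=/-], the last on the call that was lost under the settings given above. The study itself names RAB17 among its [+/+] genes, from these same libraries. The study sets [=/-] genes apart as late responding and leaves them out of its memory genes. Only the rise of RAB17 kept its call without each library in turn, with log2 changes between 2.87 and 3.98. The interval for RAB17 (2.59 to 4.26) lay apart from those of COR410 (-2.34 to -0.58), dehydrin 13 (-1.83 to -0.25) and DHN2 (-1.21 to 0.60), while the last 3 overlapped each other. Both steps use the same S1 libraries. The median change of all genes in this step was 0.11, and relative to it the changes were 3.31 for RAB17, -0.42 for DHN2, -1.57 for COR410 and -1.15 for dehydrin 13.

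S3 relative to W gives the net change after 3 exposures. RAB17 rose by 6.61 log2 units, DHN2 by 5.62 and COR410 by 4.97, with standard errors of 0.36, 0.39 and 0.38. These are 3 of the 4 members, where 13.3% of all genes were called higher, 8.7% lower and 22% in either direction. RAB17 is counted here too, although it reached the level set for members only in dehydrated libraries. Their S3 libraries all lay above their W libraries, an arrangement of 46.5% of all genes tested, with the opposite one in 27.4%. Among all genes called, 60.4% were higher, a share that was 47.6% after upper-quartile scaling, and the median of all genes was 0.16 as deposited and -0.04 after that scaling. The 3 changes are far larger than this shift. That of dehydrin 13 is not, and its sign turned to -0.11 after upper-quartile and -0.03 after median-of-ratios scaling. By size of increase RAB17 stood at rank 12, DHN2 at 31 and COR410 at 49 of 20130 genes. The order of the 3 inducible members at S3 against W was thus the opposite of their order at S1 against W. However, neighbours in either order had overlapping intervals, except RAB17 and DHN2 in S1 against W (2.35 to 4.02 and 5.02 to 6.83). These intervals are for 1 added before the logarithm, and the sizes for RAB17 depend on that value. With 0.1 added, RAB17 rose by 4.35 and DHN2 by 6.01 in S1 against W. In S3 against W, RAB17 then rose by 7.87 and DHN2 by 5.70.

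**Figure D2:**
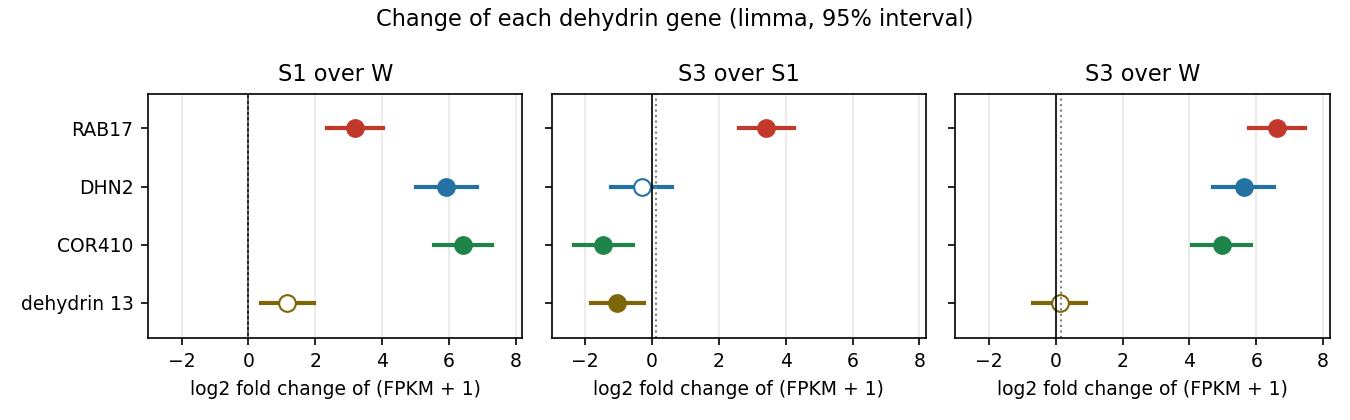
Log2 fold change of (FPKM + 1) from limma for each dehydrin gene in S1 over W, S3 over S1 and S3 over W; bars are 95% intervals, filled points are called, open points are not, and the dotted line is the median of all genes tested. RAB17 is at 3.42 in S3 over S1, where the other members lie between -1.46 and -0.31.

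**Figure D3:**
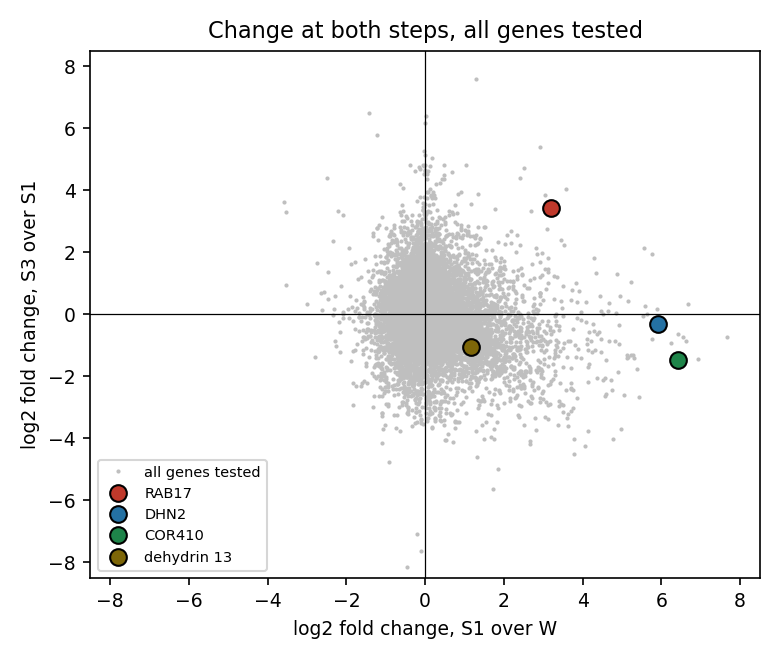
Log2 fold change of S1 over W against that of S3 over S1 for the 20130 genes tested (grey; 2 genes lie outside the axes) and the 4 dehydrin genes (coloured). Both axes use the S1 libraries, so a chance high S1 value moves a gene right and down; RAB17 is the dehydrin in the upper right.

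FPKM are scaled by transcript length, so the levels of the 4 genes can be added and set beside each other. They summed to 728 and 510.3 FPKM in the W libraries, 3590 and 2245 FPKM in the S1 libraries, and 1558 and 2128 FPKM in the S3 libraries. Both dehydrated conditions exceeded W in every library, and the S3 libraries lay below both S1 libraries. As a share of all FPKM the 4 genes made up 0.108% and 0.0897% (W), 0.587% and 0.343% (S1) and 0.271% and 0.346% (S3). By share, S3 did not lie below S1 throughout, since replicate 2 of S3 slightly exceeded replicate 2 of S1.

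The make-up of this pool differed between W, S1 and S3. Dehydrin 13 supplied 97.8% and 94.5% of it in watered leaves, 41.4% and 51.6% in S1 leaves, and 33.4% and 37.3% in S3 leaves. The share of DHN2 was 1.61% and 4.46% in the W libraries, 41.0% and 33.7% in the S1 libraries, and 51.2% and 43.4% in the S3 libraries. DHN2 was thus the most abundant member in both S3 libraries, and dehydrin 13 in all W and S1 libraries, in 1 of which (replicate 1 of S1) they were nearly level at 1486 and 1473 FPKM. RAB17 supplied under 1% in W and S1 but 7.86% and 8.82% in S3.

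Ratios between members within a library do not depend on how that library was scaled. COR410 exceeded RAB17 31.0 and 37.3 times in S1, whereas in S3 they were close to level, with ratios of 0.957 and 1.19. The ratio of RAB17 to dehydrin 13 was 0.000945 and 0.0009 in the W libraries, 0.0133 and 0.00743 in the S1 libraries, and 0.236 in both S3 libraries. DHN2 exceeded COR410 2.41 and 2.36 times in S1 and 6.81 and 4.15 times in S3. The last pair moved together most closely between the S1 replicates, where both nearly halved in level while their ratio stayed.

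**Figure D4:**
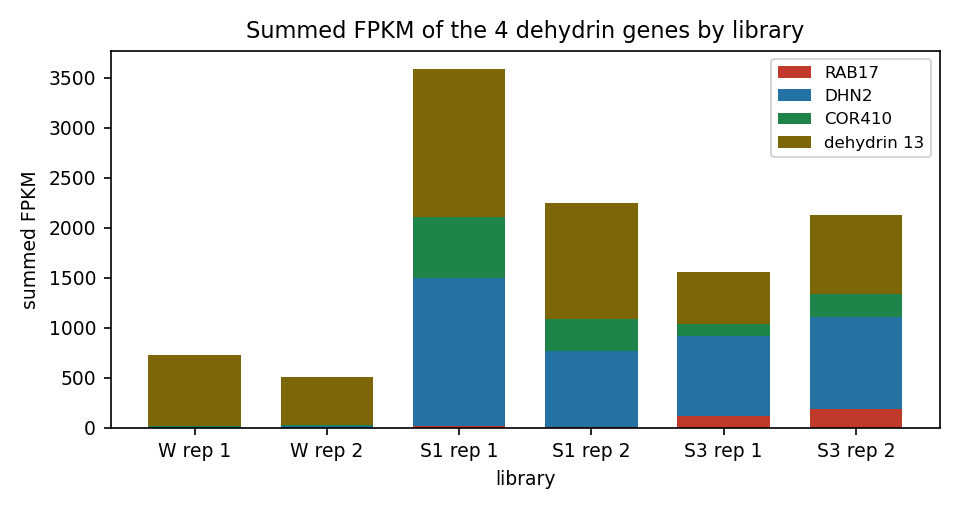
Summed deposited FPKM of the 4 dehydrin genes in each library, stacked by gene. Nearly all of the 728 and 510.3 FPKM in W is dehydrin 13, and RAB17 is visible in both S3 libraries, at 122 and 188 FPKM.

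The dehydrin genes differed between replicates by up to 2.29 times. In S1, replicate 1 exceeded replicate 2 for all 4 members, 2.29 times for RAB17, 1.95 times for DHN2, 1.90 times for COR410 and 1.28 times for dehydrin 13. Over all genes tested 42.5% were higher in replicate 1, and the log2 difference of RAB17, DHN2 and COR410 was larger than that of 99.3%, 98.7% and 98.5% of genes. In S3 the order was the other way round, with replicate 1 below replicate 2 for all 4 members, at 0.653, 0.864, 0.527 and 0.655 times for RAB17, DHN2, COR410 and dehydrin 13. Most genes also had a lower replicate 1 in S3, with 40.4% higher there, and the signed log2 differences of replicate 1 from replicate 2 lay above those of 5.26%, 32.4%, 1.70% and 5.28% of genes for the members in the same order. DHN2 in S3, at 0.21 log2 units, differed by less than the median gene (0.23). In W, RAB17 and dehydrin 13 were higher in replicate 1 and DHN2 and COR410 in replicate 2. The 4 genes of a library share its plants, so these are not independent observations, and the plants' water content when each library was taken was not analysed here.

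The genes with the profile most like each member were found by the root mean square difference of log2(FPKM + 1), relative to the W mean, over the 6 libraries. For RAB17 the closest was GRMZM2G041493, without a functional description, with a difference of 0.25 log2 units (Pearson r = 0.997 over 6 libraries). Next came GRMZM2G078472, described as asparagine synthetase 4, an enzyme of nitrogen storage (0.53, r = 0.99), and GRMZM2G159811, which the study names among its PP2C phosphatase genes (0.54, r = 0.99). All were picked over these same libraries, so a high r follows from the choice. For GRMZM2G041493 the W libraries had 0.481 and 0.350 FPKM, the S1 libraries 15.1 and 7.38 and the S3 libraries 165 and 168, and it shared with RAB17 the near 2-fold gap between the S1 replicates. For DHN2 the closest were GRMZM2G078806, without a functional description (0.28), GRMZM2G315431, described as a ubiquitin-protein ligase (0.29), and GRMZM2G085086, described as farnesylated protein 1 (0.35). GRMZM2G085086 was also the closest to COR410 (0.28), followed by GRMZM5G822237, described as cylicin-1 (0.42), and GRMZM2G315431 (0.48). The DHN2 and COR410 profiles were thus near each other, COR410 being number 10 in order of closeness to DHN2 with a difference of 0.54 log2 units (r = 0.98). RAB17 differed from DHN2 by 1.72 and from COR410 by 2.11 log2 units, and dehydrin 13 differed from each of the others by at least 3.93. The genes closest to dehydrin 13 were GRMZM2G366301 (0.11), GRMZM2G099023 (0.17) and GRMZM2G426469 (0.17), and each of these stayed at or under 5.31 FPKM. Near 1 FPKM the added 1 compresses changes, so this likeness holds only on that scale. In S1 leaves GRMZM2G099023 stood at 1.84 and 1.19 FPKM, against 0.235 and 0.110 FPKM in W leaves. That is a larger ratio than that of dehydrin 13. Likeness to the other members can hide larger ratios too. GRMZM2G315431, listed for DHN2 and COR410, rose from 0.0636 and 0.178 FPKM (W) to 79.7 and 53.6 FPKM (S1). GRMZM2G159811, listed for RAB17, rose from 0.0653 and 0.0143 FPKM (W) to 15.6 and 7.77 FPKM (S1). Both ratios exceed those of the members concerned. Those of GRMZM2G041493 and GRMZM2G078472 were close to that of RAB17, and that of GRMZM5G822237 lay below that of COR410.

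**Figure D5:**
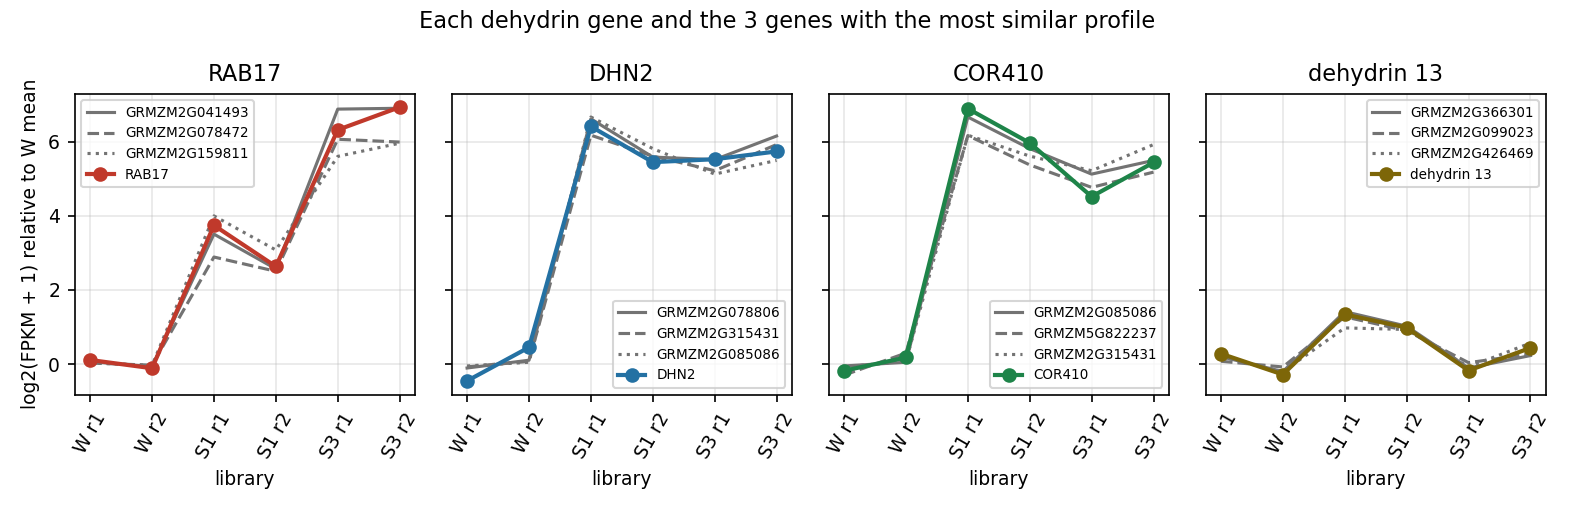
Log2(FPKM + 1) relative to the W mean in each of the 6 libraries for each dehydrin gene (coloured) and the 3 genes with the most similar profile (grey); lines only join the points of a gene. The RAB17 group climbs at both steps, the DHN2 and COR410 groups reach 6 log2 units or more in the first S1 library, and the dehydrin 13 group stays within 1.5 log2 units of W.

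Other genes described as dehydrins or named so in RefSeq did not show the large rises of RAB17, DHN2 and COR410. GRMZM2G448511, like GRMZM2G169372 described as dehydrin 13, is listed at 0 in 4 libraries and at 0.0424 and 0.0353 FPKM in 1 W and 1 S1 library. GRMZM2G002786, with the RefSeq synonym dehydrin7 but no such word in the deposited description, had FPKM of 22.5 and 20.9 (W), 23.9 and 30.5 (S1) and 27.6 and 40.6 (S3). It was not called in any comparison (adjusted p = 0.386 in S1 against W, 0.319 in S3 against S1 and 0.0597 in S3 against W, limma).

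Genes of related function were taken by words in the deposited descriptions, which are missing for 19801 of the 39634 genes, so the lists are incomplete and say nothing of the families as a whole. Neither of the 2 tested genes described as LEA proteins was called in any of the comparisons, with log2 changes of -0.33 and 0.05 in S1 against W. Of 9 genes described as PP2C phosphatases, enzymes of which several hold ABA signalling in check, 4 rose in S1 relative to W and none fell. In S3 relative to S1, 2 rose and 1 fell. Over all genes tested, 7.51% rose and 1.54% fell in S1 relative to W. In S3 relative to S1, 9.17% rose and 9.22% fell. These shares stand beside the counts of every list here. GRMZM2G082487, 1 of the 4 PP2C genes that rose in S1, had FPKM of 0.740 and 0.519 (W), 29.6 and 18.4 (S1) and 52.3 and 30.5 (S3). GRMZM2G155991 rose by 2.37 log2 units in S1 relative to W and fell by 1.17 in S3 relative to S1. Of 3 genes with the word abscisic, 1 rose in S1 relative to W: GRMZM5G854138, an abscisic stress ripening gene, with 504 and 366 FPKM in S1 against 201 and 153 FPKM in W (log2 change 1.28, adjusted p = 0.0429, limma). Of the 5 tested genes named after seed storage proteins or cupins, 2 rose in S1 relative to W, and both are described as cupins (GRMZM2G159700 and AC203989.4_FG001). The 1 tested gene described as low temperature-induced, GRMZM2G448607, was not called in any comparison. The medians of these lists in S1 against W were -0.14 for LEA, 0.49 for PP2C and 1.28 for abscisic. They were 0.15 for seed storage and 0.20 for the low-temperature gene, against 4.56 for the 4 members. That last median includes RAB17, whose rise over W was favoured by the level set for members. It leaves out GRMZM2G002786, at 0.30.

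In the order of genes on the NAM-5.0 assembly, where names of only some genes match the files, a measured neighbour was found for 3 members. GRMZM2G176605, an ankyrin repeat gene next to dehydrin 13, had FPKM of 0.352 and 0.499 (W), 6.94 and 4.60 (S1) and 0.749 and 1.18 (S3) and was called in both steps (2.23 and -1.78 log2 units, adjusted p = 0.000718 and 0.00107, limma). GRMZM2G169432 on the other side of dehydrin 13 stayed between 13.3 and 16.4 FPKM and was not called. GRMZM2G080644 next to DHN2 stayed between 8.49 and 12.7 FPKM and was not called, and GRMZM2G381748 next to RAB17 is listed at 0 in every library.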

How the data were processed

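The authors aligned reads with bowtie and tophat to B73 RefGen_v2 and ran cuffdiff on the Filtered Gene Set gene models, per the paper's methods; the labels name CASAVA 1.8.2 and TopHat, there as 0.12.8. For each library the authors deposited 1 FPKM value per gene. A table of the whole series holds 1 FPKM value per condition, descriptions, and 4 columns of cuffdiff fold changes and q-values, which were not used. W and S1 were taken to come from 1 cuffdiff run and S3 from another. The S1 library means were 0.9934 times the S1 values of the series table (within 0.5% for 97.5% of genes above 1 FPKM). W and S3 both matched that table, so which of them shared a run with the S1 libraries is not shown. On that assumption, S3 libraries were multiplied by 0.9934 for every test and ratio of means. Levels are printed as deposited.

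FPKM are not counts, so limma 3.58.1 (R 4.3.3) was used on log2(FPKM + 1), through lmFit and a trended eBayes, in 1 fit of all 6 libraries. The model was tested on simulated data. Benjamini-Hochberg adjustment was over the 20130 genes that reached 1 FPKM in 2 or more libraries. Calls followed the paper's criteria: adjusted p of at most 0.05, a log2 change of at least 1 in size, and 1 condition above the 25th percentile of FPKM. Every adjusted p in the text comes from limma. The p-values rest on the spread between 2 pools of plants per condition. For each gene that spread is shared over W, S1 and S3 and drawn towards a trend over all genes tested. The files give no read counts, so no counting limits are given.

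The members and the gene lists were chosen with earlier results of these data known. Named genes are the members, other dehydrins, the 3 genes most like each member, and in each word list the 2 genes with the largest called change per step; neighbouring genes and GRMZM2G448607 were added after values were seen, and not every gene that the word lists select is described. RefSeq (NAM-5.0) supplied names for 18773 genes and gene order only. Promoter and protein sequences were not analysed here. Alternatives covered the value added before the logarithm, the filter, scaling, the factor for S3, the libraries in the fit, the replicate block, thresholds and leaving out each library. Python 3.11.15, numpy 2.4.6, pandas 2.3.3 and matplotlib 3.10.9 were used.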

Additional observations from a re-analysis of the deposited data

How the results depend on the processing

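The rises of RAB17, DHN2 and COR410 in S1 and in S3 relative to W, and of RAB17 in S3 relative to S1, kept their calls under all 16 alternatives. The fall of COR410 in S3 relative to S1 ranged from -1.92 to -0.997 log2 units with 1 library left out, and it was not called when low genes were kept in the test (-1.46, limma adjusted p = 0.0631) or at an adjusted p of at most 0.01 (-1.46). That of dehydrin 13 ranged from -1.34 to -0.73, and was not called without the filter (-1.04, adjusted p = 0.144), with only the 4 libraries compared (-1.04, 0.0609), with the replicate block (-1.04, 0.0944) or at 0.01 (-1.04). The number of dehydrin genes called in that comparison was then 1 without the filter and 1 at 0.01, and from 1 to 3 with 1 library left out, against 3. Its first rise, of 1.16, was called after median-of-ratios scaling (1.15) and with only the 4 libraries compared (1.16), and ranged from 0.88 to 1.44 with 1 library left out, where 3 to 4 dehydrin genes were called. The difference of DHN2 between S3 and S1 ranged from -0.79 to 0.17, and that of dehydrin 13 between S3 and W from -0.18 to 0.43, with -0.11 after upper-quartile and -0.033 after median-of-ratios scaling. Why a call changed between settings was not tested. Without a fold-change threshold 3214 genes were called in S1 against W, 7467 in S3 against S1 and 8268 in S3 against W, compared with 1820, 3701 and 4424. Deviations of same-numbered replicates correlated across genes at 0.14 (W with S1), -0.087 (W with S3) and 0.062 (S1 with S3). Such values over all genes cannot decide whether single genes share an effect of the replicate number, which marks the read length. With the replicate block no other dehydrin call changed, and 1784, 3669 and 4406 genes were called. FPKM hold no read counts, which limits what can be said of RAB17 in W.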
